A study of Mus musculus with 16 samples.

Results

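The genes described here encode the proteins of the cytosolic ribosome, together with a few paralogs and look-alike names. They were chosen by name: a probe set had to carry exactly 1 gene symbol in the platform annotation, and that symbol had to be Rpl or Rps followed by a digit, Rplp0 to Rplp2 or Rpsa. Rps6k kinase genes and symbols containing -ps were left out. The rule found 50 of the 18193 genes with a probe set of their own, on 106 probe sets. Each gene is represented by whichever of its probe sets had the highest mean across the 16 arrays, and the choice used no difference between genotypes. Of the 50, 43 are core ribosomal proteins, 22 of the large and 21 of the small subunit. The other 7 are the paralogs Rpl3l, Rpl7l1, Rpl22l1, Rpl39l, Rps4l and Rps27l, and Rps19bp1, which encodes a protein that binds Rps19 and is no part of the ribosome.

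The ribosome makes every cytosolic protein from a small subunit that reads the mRNA and a large subunit that joins amino acids. Most of its proteins are needed in equal numbers. In vertebrates their mRNAs begin with a run of pyrimidines, the terminal oligopyrimidine tract, through which mTORC1 and Larp1 control their translation as a group. Neurons translate both in the cell body and near synapses, and altered translation has been studied in several neurodegenerative diseases.

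Striatum was taken from 4 genotypes of mice of strain B6xCBA, with 4 biological replicates each. The groups were R6/2 x DREAM+/-, R6/2, DREAM+/- and wild type. R6/2 mice carry a transgene with the first exon of human huntingtin and an expanded CAG repeat and develop a Huntington's disease-like illness. The calcium sensor DREAM represses transcription in the nucleus and binds potassium channels at the membrane. It is encoded by Kcnip3, and the DREAM+/- groups carry 1 knockout copy of it. R6/2 x DREAM+/- mice came from a cross of these lines. No age or sex is given in the sources used here. RNA was from whole striatum, although the cell type is labelled striatal neurons, so fewer cells of a type and less RNA per cell cannot be told apart. Levels are log2 probe-set values from Affymetrix Mouse Genome 430 2.0 arrays, and the 4 arrays per group limit their precision.

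The Kcnip3 values followed the labels in direction. The brighter Kcnip3 probe set lay between 7.43 and 7.67 in R6/2 x DREAM+/- against 9.04 to 9.23 in R6/2, and between 7.72 and 7.82 in DREAM+/- against 9.41 to 9.89 in wild type. A second, dimmer probe set lay between 5.24 and 5.57 in R6/2 x DREAM+/- against 7.89 to 8.10 in R6/2. It lay between 5.40 and 5.85 in DREAM+/- against 8.22 to 8.83 in wild type. On both probe sets the fall was larger than 1 lost copy would give in proportion, and the reason was not tested. Whether the probes of either set lie within the part removed in the knockout allele was not checked. The mean of 15 medium spiny neuron markers was 11.21 or higher on every array, so striatal markers were present throughout. Markers of astrocytes, oligodendrocytes and microglia were also above the brightness filter. A pair of arrays stood apart. R6/2 replicate 1 had an Xist level of 6.49 against 11.04 to 12.16 on the other arrays, and R6/2 x DREAM+/- replicate 3 had the lowest mean correlation with its own group (0.9914). Actin 3′ minus 5′ probe-set differences were 1.10 on that array and 1.03 in wild type replicate 4, against 0.44 to 0.76 elsewhere.

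Start-site sequences are shown for 6 members whose levels are described in detail below, because the pyrimidine run is the feature that defines the family's translational control. RefSeq windows on GRCm38.p6 were matched for 44 of the 50 members by Entrez identifier. Each sequence holds 40 bases before the annotated start and 20 from it, 5′ to 3′ on the gene's strand. Capitals mark a C within 5 bases of the start together with the pyrimidines, at least 4, that follow it. Bases before that C were not examined. In Rpl7a and Rpl14 pyrimidines also precede it, so the marked run is part of a longer stretch.
Rpl7a: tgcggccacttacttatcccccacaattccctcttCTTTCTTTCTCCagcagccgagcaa
Rps27: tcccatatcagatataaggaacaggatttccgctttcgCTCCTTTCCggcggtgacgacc
Rpl39: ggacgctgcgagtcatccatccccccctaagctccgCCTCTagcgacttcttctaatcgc
Rpl14: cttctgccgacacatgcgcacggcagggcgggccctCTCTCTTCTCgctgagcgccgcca
Rps2: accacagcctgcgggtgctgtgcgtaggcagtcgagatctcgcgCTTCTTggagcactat
Rps18: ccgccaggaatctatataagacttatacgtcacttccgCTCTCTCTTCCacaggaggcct
The windows are chr2:26910767-26910826 on the plus strand for Rpl7a, chr3:90213629-90213688 on the minus strand for Rps27 and chrX:37085203-37085262 on the minus strand for Rpl39. Those of Rpl14 (chr9:120571477-120571536, plus), Rps2 (chr17:24720023-24720082, plus) and Rps18 (chr17:33955646-33955705, minus) lie on chromosomes 9, 17 and 17. A run of this kind was found in 20 of the 44 members (45.5%) and in 21.2% of the 27025 genes with a window. CCGGAAG, the core of the motif bound by ETS factors, was found on either strand of the 300-base window in 21 members (47.7%) and in 9.93% of all genes. Both were present in 12 members, and the motif was allowed to overlap the run. A gene with several annotated starts was counted if any of its windows matched.

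Most members gave very bright probe sets. In all, 35 had a mean above 11 and were among the brightest 5% of genes, and 22 were among the brightest 1%. The brightest were Rps29 at 13.85, Rpl37a at 13.52 and Rpl38 at 13.39 (mean log2 level over 16 arrays). A further 12 lay between the brightness filter (5.944) and 10. Rps16 (4.13), Rpl39l (4.84) and Rpl3l (4.88) were under the filter and were not tested. The remaining 47 were tested. A probe set's brightness depends on its probes as well as on the RNA, so levels are not compared between genes. The low value of Rps16, a core small-subunit protein, is the signal of the 1 probe set assigned to it alone.

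Within a genotype the members varied less than the genes tested as a whole, which are mostly dimmer. The SD of genes of like brightness was not compared. The median SD over 4 replicates was 0.0592 in R6/2 x DREAM+/-, 0.0492 in R6/2, 0.037 in DREAM+/- and 0.0512 in wild type, against 0.106, 0.0816, 0.0658 and 0.0976 for all 13011 genes tested. Rpl27a was the most variable member in wild type (SD 0.605) and DREAM+/- (0.372), and Rpl14 in R6/2 x DREAM+/- (0.294) and R6/2 (0.247). Replicate deviations of the 35 bright members correlated with each other, with a mean pairwise Pearson r of 0.185 over 16 arrays. The value was 0.052 among the 12 dimmer members and 0.021 among all 1134 genes with a mean above 11. These correlations share the arrays and their normalization and are given as a description.

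**Figure D1:**
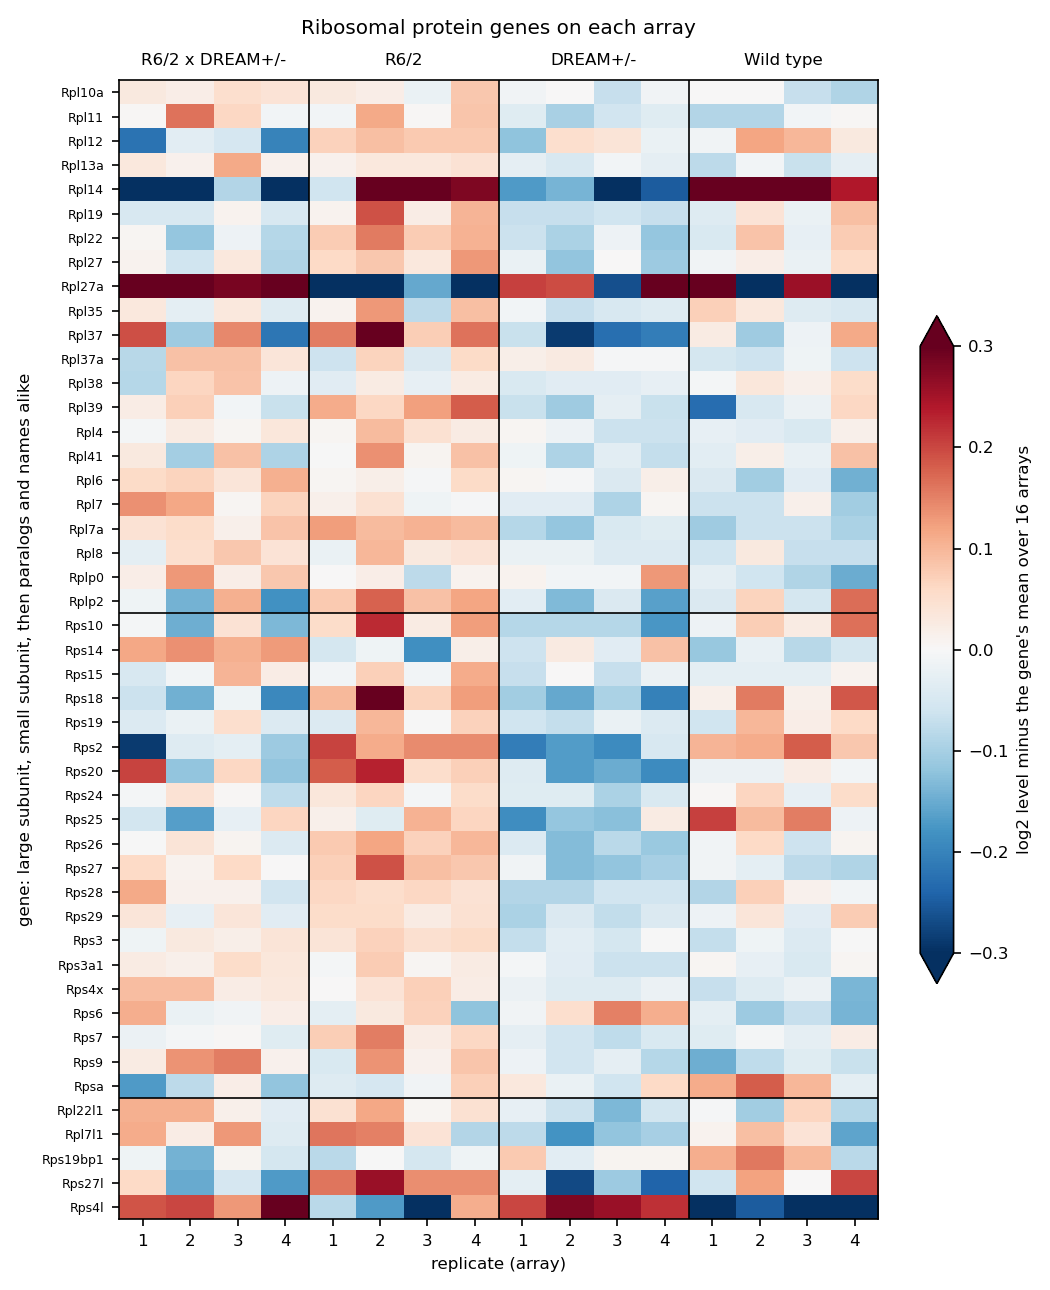
Log2 level of each of the 47 tested members (rows) on each of the 16 arrays (columns), as the deviation from that gene's mean over all arrays. Red is above and blue below the mean, and colours saturate at 0.3. Most rows are pale, R6/2 columns lean red and DREAM+/- columns lean blue, while Rpl14, Rpl27a and Rps4l show far larger steps.

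In R6/2 striatum the ribosomal protein genes lay slightly higher than in wild type, and few of them passed the test singly. The median log2 change over 47 members was 0.065, against 0.03 over all genes tested. It was above 0 for 41 members (87.2%), against 57.3% of all genes. At a Benjamini-Hochberg adjusted p under 0.05 (limma, over 13011 genes) 4 members rose and 0 fell, which is 8.51% of the members, where 25.4% of all genes passed (13.5% higher and 11.9% lower). The 4 were Rpl7a, Rps27, Rpl39 and Rps4l. At an unadjusted p under 0.05, 11 members passed (23.4%), against 37.4% of all genes.

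Rpl7a, a large-subunit protein, gave the clearest difference. Its level was 12.92, 12.89, 12.90 and 12.89 in R6/2, against 12.69, 12.73, 12.73 and 12.70 in wild type. The groups did not overlap, and the change was 0.19 (SE 0.0399, 95% interval 0.10 to 0.27, limma adjusted p 0.00235, n = 4 each), or 13.9%. Rps27, a zinc-binding protein of the small subunit, had 7.90, 8.02, 7.92 and 7.91 in R6/2, against 7.82, 7.80, 7.75 and 7.74 in wild type. Every R6/2 array was above every wild-type array (change 0.16, SE 0.0458, limma adjusted p 0.0164), and without R6/2 replicate 2 the adjusted p was 0.0564. Both genes carry the pyrimidine run shown above.

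Rpl39 lies at the exit tunnel for the growing protein. Its levels were 7.66, 7.61, 7.67 and 7.73 in R6/2, against 7.32, 7.50, 7.53 and 7.61 in wild type, and the groups touched at 7.61. The change was 0.18 (SE 0.0570, limma adjusted p 0.0301), and 0.12 with an adjusted p of 0.105 without wild type replicate 1. The call was also lost without R6/2 replicate 1, 3 or 4 or wild type replicate 2 (adjusted p 0.0526 to 0.0837). A second, brighter probe set that Rpl39 shares with a predicted gene differed by 0.15. Rps4l, a copy of Rps4x that RefSeq annotates as a transcribed pseudogene, had 8.78, 8.69, 8.54 and 8.97 in R6/2, against 8.49, 8.61, 8.54 and 8.42 in wild type. Those groups overlapped (change 0.23, SE 0.0759, limma adjusted p 0.0341), and without R6/2 replicate 4 the change was 0.15 with an adjusted p of 0.123. It passed in 17 of 26 alternative settings, and was also lost without R6/2 replicate 1 or wild type replicate 1, 3 or 4. Of the 4 members called, 3 are among the 12 with a mean under 10.

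Groups did not overlap for 8 members higher in R6/2 and 0 lower, or 17% and 0% of 47, against 13.4% and 11.8% of all genes. Beside Rpl7a and Rps27 these were Rpl6, Rpl13a, Rps3, Rps4x, Rps20 and Rps26, with changes of 0.08 to 0.14 and limma adjusted p values of 0.0925 to 0.193. The 3 lowest changes were those of Rpl27a (-0.19, SE 0.219), Rpl14 (-0.13, SE 0.136) and Rps19bp1 (-0.11, SE 0.0547), none of which passed. Rpsa, also known as the laminin receptor precursor, was at -0.10 (SE 0.0555, limma adjusted p 0.212). The count of 4 fell to 2 without R6/2 replicate 4 and also without wild type replicate 1, and Rps19bp1 fell (-0.16, adjusted p 0.0298) without wild type replicate 4.

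On the DREAM+/- background the R6/2 transgene went with a median change of like size, and no single member passed. The median change in R6/2 x DREAM+/- against DREAM+/- was 0.055 over the members and 0.022 over all genes, and 41 of 47 members (87.2%) were above 0, against 56.5% of all genes. With 0 members passing in limma, the share called was 0%, against 14.9% of all genes (7.07% higher and 7.87% lower), and 11 members (23.4%) had an unadjusted p under 0.05, against 28.2% of all genes. Groups did not overlap for 13 members higher in R6/2 x DREAM+/- and 0 lower, or 27.7% and 0%, where 10.4% and 8.46% of all genes did so. Without R6/2 x DREAM+/- replicate 3, 2 members rose (Rpl7 and Rpl7a), and without replicate 4 of that group, 1 did (Rpl37).

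Rpl7a was nearest to the threshold there. Its levels were 12.84, 12.85, 12.81 and 12.88 in R6/2 x DREAM+/-, against 12.71, 12.68, 12.75 and 12.76 in DREAM+/- (change 0.12, SE 0.0399, limma adjusted p 0.0521). Rps27 had 7.89, 7.84, 7.89 and 7.83 in R6/2 x DREAM+/-, against 7.82, 7.70, 7.71 and 7.73 in DREAM+/- (change 0.12, SE 0.0458, adjusted p 0.0833). Neither pair of groups overlapped. The highest changes were those of Rpl37 (0.20, SE 0.0867), Rpl27a (0.20, SE 0.219) and Rpl7l1 (0.17, SE 0.0653), and the lowest those of Rpl14 (-0.20, SE 0.136), Rpl12 (-0.11, SE 0.0552) and Rpsa (-0.09, SE 0.0555). Rps4l, called against wild type, was at -0.02 (SE 0.0759).

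These R6/2 comparisons share no arrays. Changes were above 0 in both for 38 of 47 members (80.9%), against 45.0% of all genes tested, and below 0 in both for Rpl14, Rpsa and Rps19bp1. Groups did not overlap in both, in the direction of R6/2, for Rpl6, Rpl7a, Rpl13a, Rps4x and Rps27, or 10.6% of the members against 5.28% of all genes. None passed in both, against 11.2% of all genes. Across the members the Pearson correlation of both sets of changes was 0.384 (0.798 across all genes). The members' changes spanned a narrow range, with quartiles of 0.033 to 0.091 and a median SE of 0.049 in R6/2 against wild type. Over all genes the quartiles were -0.088 to 0.127, so these correlations cannot show whether the members share an order. The interaction of both genotypes passed for 0 of 13011 genes, with 898 (6.90%) at an unadjusted p under 0.05. Among the members 1 did so, Rps4l (-0.25, SE 0.107, limma adjusted p 0.71), and the median interaction was -0.005.

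**Figure D2:**
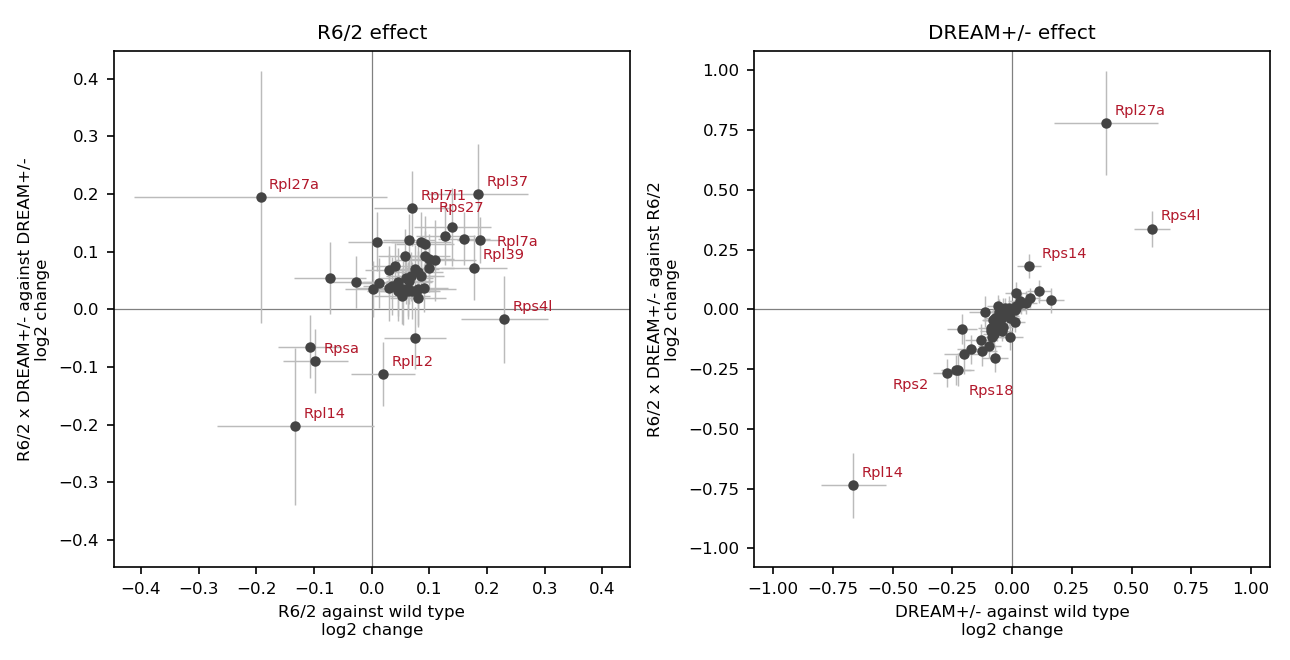
Log2 change of each of the 47 members with its SE (bars). The left panel plots R6/2 x DREAM+/- against DREAM+/- (vertical axis) on R6/2 against wild type (horizontal axis), and the right panel R6/2 x DREAM+/- against R6/2 on DREAM+/- against wild type. On the left, 38 points lie above 0 on both axes, and on the right Rpl14, Rps4l and Rpl27a stretch the axis while 30 points lie below 0 on both.

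By brightness, 33 of the 35 bright members were above 0 in R6/2 against wild type and 34 of 35 in R6/2 x DREAM+/- against DREAM+/-. Those are 94.3% and 97.1% of bright members, against 53.6% and 52.4% of 1099 other genes with a mean above 11. The sets were not equally bright, with a median level of 12.86 for the 35 members and 11.66 for the other genes. The medians were 0.065 and 0.055 for bright members, against 0.018 and 0.008 for the other bright genes. Among the 12 dimmer members, 8 and 7 were above 0. Large-subunit core proteins (19 and 20 of 22 above 0) and small-subunit core proteins (18 of 20 in each) had like counts, with medians of 0.066 and 0.049 against 0.056 and 0.056. The 20 members with a pyrimidine run at the start had medians of 0.069 and 0.048 in these comparisons, and the 21 with a window but no run 0.065 and 0.055. In R6/2 x DREAM+/- against R6/2 and in DREAM+/- against wild type, the medians were -0.082 and -0.066 with the run, and -0.028 and -0.040 without it. The search covered only bases near an annotated start, so the 21 are not shown to lack the tract. A link between the run and these changes was not tested.

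Other probe sets of the same genes mostly had the same sign. Of 45 further probe sets of 21 members, 37 in R6/2 against wild type and 40 in R6/2 x DREAM+/- against DREAM+/- had the sign of the probe set used. In a fit over 23246 probe sets with 1 symbol, 3 of the 45 rose and 1 fell in R6/2 against wild type, where 19.4% of all those probe sets passed, and 5 rose and 0 fell in R6/2 x DREAM+/- against DREAM+/-, where 11.5% did. These probe sets are named here after their values were seen. A pair of Rpl13a probe sets rose in both comparisons (0.27 and 0.28 for one, limma adjusted p 0.0130 and 0.0186, and 0.17 and 0.15 for the other). The brighter pair of Rpl13a probe sets did not pass, at 0.08 and 0.07 for the brightest and 0.05 and 0.00 for the next (mean 12.79). A dim probe set of Rpl7l1 (mean 6.76) had 6.84, 6.90, 6.93 and 6.86 in R6/2, against 6.47, 6.53, 6.50 and 6.70 in wild type (change 0.33, adjusted p 0.000498).

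Many core genes are not among the members. In all, 27 core genes, among them Rpl3, Rpl5, Rpl10 and Rplp1, were only on probe sets with several symbols, and 100 of the 110 such probe sets also carry a pseudogene or predicted-gene symbol. Of the 103 that lay above the filter, 87 were above 0 in each R6/2 comparison, with medians of 0.057 and 0.065.

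**Figure D3:**
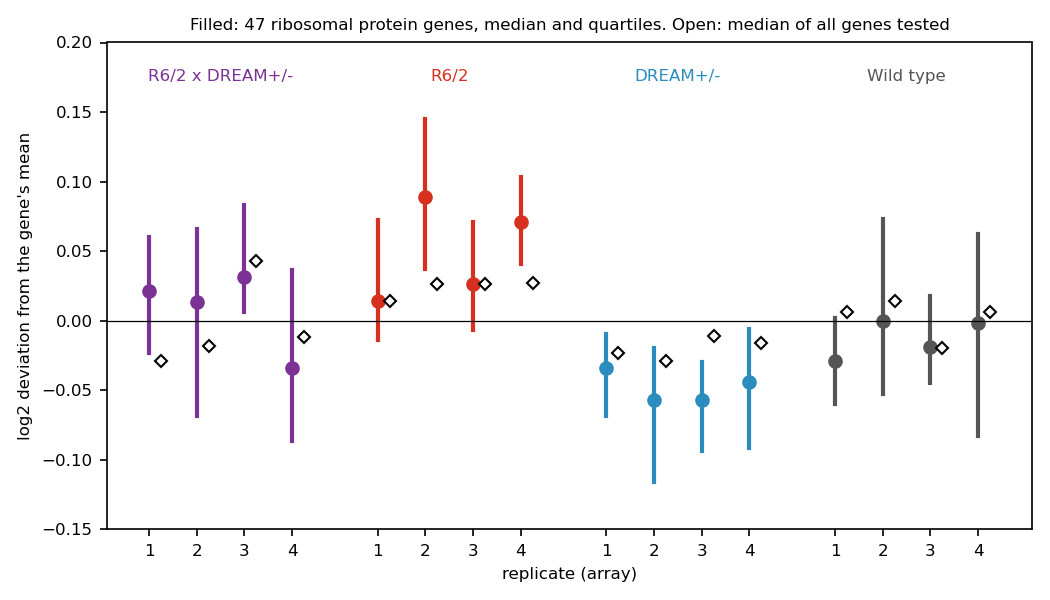
Median (filled points) and quartiles (bars) of the 47 members' log2 deviations from their own means on each array, by genotype, with the median of all genes tested as open diamonds. R6/2 arrays lie at 0.014 to 0.089 and DREAM+/- arrays at -0.057 to -0.034, with wild type between them. R6/2 x DREAM+/- arrays, at -0.034 to 0.031, reach into both ranges.

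Array by array, the median deviation of the members was 0.021, 0.013, 0.031 and -0.034 in R6/2 x DREAM+/-, and 0.014, 0.089, 0.026 and 0.071 in R6/2. It was -0.034, -0.057, -0.057 and -0.044 in DREAM+/-, and -0.029, 0.000, -0.019 and -0.002 in wild type. All 4 R6/2 arrays were above all wild-type arrays, whereas R6/2 x DREAM+/- replicate 4 was level with DREAM+/- replicate 1. The median of all genes ran from -0.029 to 0.043, 0.014 to 0.027, -0.029 to -0.011 and -0.020 to 0.014 in the same 4 groups. In R6/2 replicates 1 and 3 the members' median equalled that of all genes (0.014 and 0.026). In R6/2 replicates 2 and 4 it was higher (0.089 and 0.071, against 0.026 and 0.027). On several arrays, among them R6/2 x DREAM+/- replicates 1 and 2, the members and all genes lay on opposite sides of 0. Once arrays were shifted to a common median, the members' median change was 0.06 in R6/2 against wild type and 0.048 in R6/2 x DREAM+/- against DREAM+/-.

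Cell markers moved in the same comparisons. Of 15 medium spiny neuron markers, 0 rose and 13 fell in R6/2 against wild type, and 0 rose and 14 fell in R6/2 x DREAM+/- against DREAM+/-. Their mean level was 11.21 to 11.60 in R6/2 x DREAM+/-, 11.35 to 11.51 in R6/2, 11.87 to 11.98 in DREAM+/- and 11.97 to 12.12 in wild type. Of 10 interneuron markers, 8 and 7 fell and 0 rose. Of 9 oligodendrocyte markers, 4 fell in each of these comparisons. Of 10 astrocyte markers, 4 and 3 fell and 1 and 0 rose, and of 9 cortical neuron markers 6 and 2 fell. The part of such shifts in the ribosomal protein values was not tested.

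In DREAM+/- striatum the ribosomal protein genes lay slightly lower than in wild type, and 4 members passed singly. The median change was -0.045 over the members and -0.025 over all genes, and -0.01 over the members once arrays were shifted to a common median. Changes were below 0 for 33 of 47 members, and 29.8% were above 0, against 39.6% of all genes. In limma 1 member rose, Rps4l, and 3 fell, Rpl14, Rps2 and Rps18. That is 8.51% of the members, where 3.68% of all genes passed (1.60% higher and 2.08% lower). Groups did not overlap for 4 members higher (8.51%) and 9 lower (19.1%), against 4.57% and 7.94% of all genes.

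In R6/2 x DREAM+/- against R6/2, which shares no array with that comparison, the same 4 members passed in the same direction. In all, 3 rose (Rpl27a, Rps4l and Rps14) and 6 fell (Rpl14, Rps2, Rps18, Rps27l, Rpl12 and Rpl22). That is 19.1% of the members, where 14.0% of all genes passed (5.33% higher and 8.65% lower). Groups did not overlap for 3 members higher (6.38%) and 10 lower (21.3%), against 6.24% and 9.59% of all genes. The median was -0.04 over the members and -0.032 over all genes, and -0.007 over the members once arrays were shifted to a common median. Changes were below 0 in both DREAM+/- comparisons for 30 members (63.8%), against 44.7% of all genes, and the Pearson correlation across members was 0.894 (0.705 across all genes). Passing both with 1 sign were 8.51% of the members and 2.52% of all genes. Without R6/2 x DREAM+/- replicate 2 or 4, or R6/2 replicate 1, 1 member rose, and without R6/2 x DREAM+/- replicate 4, 3 fell.

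Rpl14, a large-subunit protein, had the lowest change in both. Its levels were 7.15, 6.74, 7.42 and 6.92 in R6/2 x DREAM+/- against 7.45, 8.02, 7.91 and 7.79 in R6/2, a change of -0.73 (SE 0.136, limma adjusted p 0.00279). They were 7.34, 7.37, 7.07 and 7.26 in DREAM+/- against 7.81, 8.12, 8.02 and 7.75 in wild type, a change of -0.66 (SE 0.136, adjusted p 0.00899). No groups overlapped. This dim probe set is the 1 assigned to Rpl14 alone. The 5 brighter probe sets that Rpl14 shares with Rpl14-ps1 (means 11.47 to 12.16) differed by -0.04 to 0.08 in R6/2 x DREAM+/- against R6/2 and by -0.11 to -0.04 in DREAM+/- against wild type. The fall is thus a measurement of 1 probe set that the brighter ones do not show at that size.

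Rps2, a small-subunit protein near the mRNA entry channel, differed alike on the probe sets that carry its symbol. It had 12.97, 13.22, 13.23 and 13.15 in R6/2 x DREAM+/- against 13.46, 13.37, 13.40 and 13.40 in R6/2 (change -0.26, SE 0.0578, limma adjusted p 0.00775). In DREAM+/- it had 13.05, 13.09, 13.07 and 13.21, against 13.36, 13.37, 13.44 and 13.34 in wild type (change -0.27, SE 0.0578, adjusted p 0.0116). Neither pair overlapped. A pair of probe sets shared with predicted genes differed by -0.25 and -0.33 in the first comparison and by -0.24 and -0.34 in the second. Rps2 lies on chromosome 17 and Rps18 does too.

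Rps18 sits in the head of the small subunit. Its levels were 12.38, 12.30, 12.43 and 12.25 in R6/2 x DREAM+/- against 12.54, 12.75, 12.51 and 12.57 in R6/2 (change -0.25, SE 0.0621, limma adjusted p 0.0143). In DREAM+/- they were 12.34, 12.29, 12.35 and 12.24, against 12.46, 12.60, 12.46 and 12.63 in wild type (change -0.23, SE 0.0621, adjusted p 0.0462). No groups overlapped, but the second call passed in 11 of 26 alternative settings. The first passed in 25 of 26 and was lost with the mean of all probe sets of a gene (limma adjusted p 0.057). The 3 other Rps18 probe sets above the filter were at -0.27, -0.15 and -0.05 in the first comparison and at -0.23, -0.08 and -0.11 in the second. Over 6 tested members on chromosome 17 (Rps2, Rps10, Rps18, Rps28, Rpl10a and Rpl7l1), the medians were -0.101 and -0.143, and 5 of 6 were below 0 in each. These 6 were grouped after their values were seen.

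Rps4l rose in both. It had 9.05, 9.06, 8.99 and 9.23 in R6/2 x DREAM+/- against 8.78, 8.69, 8.54 and 8.97 in R6/2 (change 0.34, SE 0.0759, limma adjusted p 0.00905). In DREAM+/- it had 9.06, 9.14, 9.12 and 9.08, against 8.49, 8.61, 8.54 and 8.42 in wild type (change 0.58, SE 0.0759, adjusted p 0.000191). All arrays with a knockout copy were above all arrays without one. Its protein-coding relative Rps4x, X-linked and a core small-subunit protein, changed by 0.03 and 0.04 (SE 0.0425) and passed in neither.

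Rpl27a showed the highest change in R6/2 x DREAM+/- against R6/2. Its levels were 7.53, 7.48, 7.33 and 7.40 in R6/2 x DREAM+/- against 6.62, 6.56, 6.89 and 6.55 in R6/2 (change 0.78, SE 0.219, limma adjusted p 0.0271). In DREAM+/- they were 7.25, 7.24, 6.78 and 7.69, against 7.37, 6.63, 7.30 and 6.09 in wild type, and those groups overlapped (change 0.39, SE 0.219, adjusted p 0.358). A far brighter probe set that Rpl27a shares with predicted genes (mean 12.61) differed by -0.10 and -0.13 in these comparisons. The probe sets therefore disagree in sign. The call in R6/2 x DREAM+/- against R6/2 passed in 18 of 24 alternative settings. It was lost without R6/2 x DREAM+/- replicate 1, 2 or 4, or R6/2 replicate 1, 2 or 4 (change 0.75 to 0.79, adjusted p 0.0519 to 0.0678).

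Of the others called in R6/2 x DREAM+/- against R6/2, Rps14 had 13.02, 13.04, 13.01 and 13.03 in R6/2 x DREAM+/- against 12.85, 12.89, 12.72 and 12.92 in R6/2 (change 0.18, SE 0.0505, limma adjusted p 0.0270). Its second probe set rose by 0.23. Rpl12, at the base of the stalk of the large subunit, had 7.32, 7.51, 7.49 and 7.34 in R6/2 x DREAM+/- against 7.61, 7.63, 7.62 and 7.62 in R6/2 (change -0.20, SE 0.0552, adjusted p 0.0221). A pair of brighter probe sets that it shares with predicted genes differed by 0.05 and 0.00. Rps14 and Rpl12 did not overlap between these groups. Rps27l, a paralog of Rps27 known as a target of p53, had 9.41, 9.20, 9.30 and 9.18 in R6/2 x DREAM+/- against 9.51, 9.61, 9.49 and 9.49 in R6/2 (change -0.25, SE 0.0700, adjusted p 0.0253), and its other probe sets were at -0.12 and -0.17. Rpl22 had 12.17, 12.05, 12.15 and 12.08 in R6/2 x DREAM+/- against 12.24, 12.32, 12.24 and 12.27 in R6/2 (change -0.15, SE 0.0480, adjusted p 0.0406), and its other probe sets were at -0.24 and -0.01. Groups did not overlap for either gene on the probe set used. The call of Rpl22 passed in 13 of 26 alternative settings, and its adjusted p was 0.0612 with the replicate number as a block and up to 0.113 without 1 array. The calls of the 3 others were each lost without some single arrays. That of Rps14 was lost without R6/2 x DREAM+/- replicate 2 or 4 or R6/2 replicate 1 or 3 (adjusted p 0.0510 to 0.0819). That of Rpl12 was lost without R6/2 x DREAM+/- replicate 1 or 4 or R6/2 replicate 4 (0.0508 to 0.0654). That of Rps27l was lost without R6/2 x DREAM+/- replicate 2 or 4 or R6/2 replicate 2 (0.0697 to 0.0735). The mean of all probe sets of a gene also ended the call of Rps27l.

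**Figure D4:**
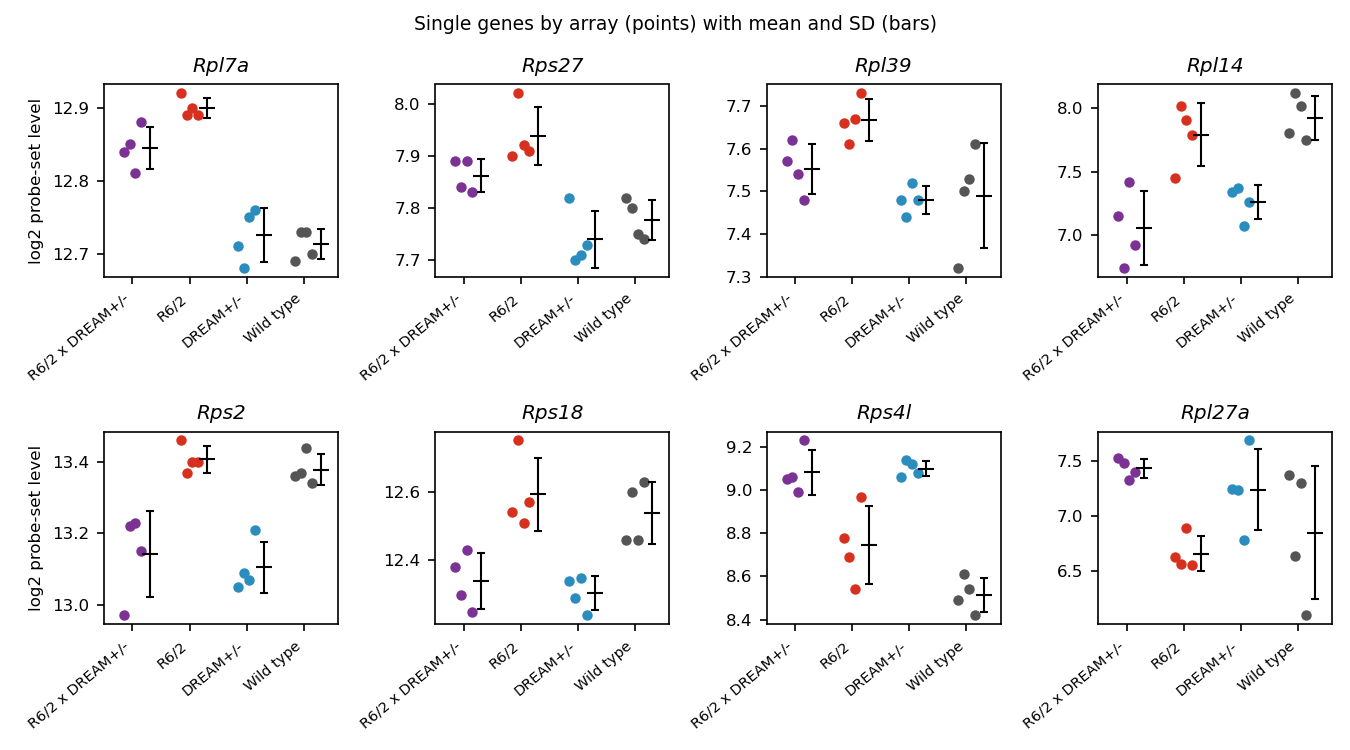
Log2 probe-set level of 8 members on each array (points) with the mean and SD of the 4 replicates (bars) beside them, by genotype. Vertical axes differ between genes. Rpl7a and Rps27 separate by the R6/2 transgene, Rpl14, Rps2, Rps18 and Rps4l by the DREAM genotype, and Rpl27a ranges from 6.09 to 7.37 within wild type.

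Across all 45 further probe sets of members, 38 in DREAM+/- against wild type and 36 in R6/2 x DREAM+/- against R6/2 had the sign of the probe set used. For members that were called, the counts were 3 of 3, all of Rps18, and 8 of 8, of Rps18, Rps14, Rpl22 and Rps27l. The other called members had no further probe set in these counts. Among them are Rpl14, Rpl12 and Rpl27a, whose brighter probe sets with several symbols did not show the change. In the probe-set fit, 1 of the 45 rose and 0 fell in DREAM+/- against wild type (3.21% of all probe sets passed), and 2 rose and 6 fell in R6/2 x DREAM+/- against R6/2 (12.4% passed).

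The largest difference among the 45 was on a dimmer probe set of Rps3, a small-subunit protein at the mRNA entry site, and it and Rps10 are described because of their values. That probe set (mean 7.53) had 8.58, 8.24, 8.37 and 8.23 in R6/2 x DREAM+/- against 6.58, 7.36, 7.13 and 7.41 in R6/2 (change 1.23, SE 0.163, limma adjusted p 0.000274). It had 8.03, 7.71, 7.78 and 7.81 in DREAM+/- against 6.77, 6.77, 7.19 and 6.50 in wild type (change 1.03, adjusted p 0.00210). The groups did not overlap in either. The bright Rps3 probe set (mean 12.61), which represents the gene, was at -0.03 and -0.01, so the probe sets of Rps3 disagree. Rps10, a small-subunit protein, was at -0.17 (adjusted p 0.0673) in R6/2 x DREAM+/- against R6/2 on the probe set used, while 4 of its 5 other probe sets fell (-0.21 to -0.30).

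Of the 103 probe sets with several symbols, 77 and 75 were below 0, with medians of -0.043 and -0.05. Small-subunit core proteins were below 0 in 16 and 15 of 20 cases (medians -0.074 and -0.045), and large-subunit core proteins in 13 of 22 in each (medians -0.012 and -0.034). Bright members had medians of -0.04 and -0.035, against -0.002 and 0.0 for the 1099 other bright genes. Of 10 microglial markers, 3 rose in each comparison, and their mean level was 9.47 to 9.51 in R6/2 x DREAM+/-, 9.22 to 9.36 in R6/2, 9.48 to 9.51 in DREAM+/- and 9.17 to 9.42 in wild type. Of 9 cortical neuron markers, 5 rose in R6/2 x DREAM+/- against R6/2. Their part in the ribosomal values was not tested.

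Members with known roles beyond bulk translation did not pass in any comparison where not named above. Rps6, the substrate of the S6 kinases, had 8.76, 8.82, 8.92 and 8.88 in DREAM+/- against 8.74, 8.66, 8.70 and 8.63 in wild type (change 0.16, SE 0.0536, limma adjusted p 0.107). Those groups did not overlap, and the changes in the other 3 comparisons were between -0.05 and 0.07. Rpl11, which binds Mdm2 and so stabilises p53 when ribosome assembly fails, was at 0.09 (adjusted p 0.185) in R6/2 against wild type and 0.11 (adjusted p 0.145) in R6/2 x DREAM+/- against DREAM+/-. Rps25, needed for initiation at some internal entry sites, was at -0.21 (SE 0.0626, adjusted p 0.0719) in DREAM+/- against wild type.

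The stalk proteins, which recruit translation factors, had like changes in the R6/2 comparisons and opposite signs in the DREAM+/- comparisons. In R6/2 against wild type Rplp0 was at 0.07 and Rplp2 at 0.08. They were at 0.03 and 0.04 in R6/2 x DREAM+/- against DREAM+/-, and neither gene passed in any comparison. Rplp0 was at 0.07 and 0.11 and Rplp2 at -0.17 and -0.13 in R6/2 x DREAM+/- against R6/2 and in DREAM+/- against wild type (adjusted p 0.0888 to 0.32). Rps19, mutated in Diamond-Blackfan anaemia, lay between -0.08 and 0.04 in all 4 comparisons, and Rpl38, needed for translation of some Hox mRNAs in mice, between -0.06 and 0.05. Rpl10a, of the large subunit, lay between 0.01 and 0.07. Rpl13a, known from control of inflammatory mRNAs, was at 0.08 (95% interval -0.01 to 0.16) in R6/2 against wild type. Its groups did not overlap in either R6/2 comparison. The paralogs Rpl22l1 and Rpl7l1 were at 0.08 and 0.07 in R6/2 against wild type and at 0.12 and 0.17 in R6/2 x DREAM+/- against DREAM+/-, and neither passed.

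Other genes of protein synthesis were read from lists drawn up from textbook knowledge. Of 19 further mRNAs with a terminal oligopyrimidine tract, 4 rose in R6/2 against wild type and 3 in R6/2 x DREAM+/- against DREAM+/-, and 0 fell in either (medians 0.098 and 0.085). That is 21.1% and 15.8% higher, against 13.5% and 7.07% of all genes. Gas5, a host gene of small nucleolar RNAs, rose by 0.18 (SE 0.0558) and 0.28 (SE 0.0558). Vim, an intermediate filament gene, rose by 0.44 and 0.39. Btf3 (0.21) and Naca (0.16), which form the nascent polypeptide-associated complex, rose in the first, and Npm1 (0.20), a nucleolar chaperone, in the second. In R6/2 x DREAM+/- against R6/2, Gas5 alone passed (0.22), and in DREAM+/- against wild type 0 of 19 did. Of 28 translation factors, 4 and 2 rose in the R6/2 comparisons, among them Eif6 (0.16 and 0.19), which keeps the subunits apart. The shares, 14.3% and 7.14%, were near those of all genes. The medians were 0.048 and 0.06, with 22 and 23 of 28 above 0.

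Of 46 ribosome biogenesis genes, 6 rose (13%) and 3 fell (6.52%) in R6/2 against wild type, where 13.5% and 11.9% of all genes did. In R6/2 x DREAM+/- against DREAM+/-, 4 rose (8.70%) and 3 fell (6.52%), where 7.07% and 7.87% of all genes did, so the counts were near or under those of all genes. The list's median changes were 0.059 and 0.067 in these comparisons, close to the members' 0.065 and 0.055. Fbl, the methyltransferase of ribosomal RNA, rose by 0.47 (SE 0.0444, limma adjusted p 1.11e-06) and 0.52 (adjusted p 1.32e-06). Nip7 (-0.50 and -0.40), Nhp2 (-0.42 and -0.30) and Ubtf, the activator of RNA polymerase I (-0.27 and -0.21), fell in both. In DREAM+/- against wild type the list's median was -0.084, with 8 of 46 above 0, against -0.045 over the members. In R6/2 x DREAM+/- against R6/2 it was -0.043, against -0.04 over the members. In the DREAM+/- comparisons Polr1a rose (0.29 against wild type), and Nop10 and Rrp9 fell (-0.24 each in R6/2 x DREAM+/- against R6/2). All of these single-gene changes are larger than the family's median.

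The mitochondrial ribosome, a separate set of proteins, had 8 of 75 genes higher and 0 lower in R6/2 against wild type, and 3 higher and 0 lower in R6/2 x DREAM+/- against DREAM+/-. The shares higher, 10.7% and 4%, were under the 13.5% and 7.07% of all genes. In R6/2 x DREAM+/- against R6/2, 3 rose and 13 fell (17.3%, against 8.65% of all genes lower), and in DREAM+/- against wild type 3 rose and 1 fell. Mrpl55 rose by 0.52 and 0.54 and Mrpl14 fell (-0.37 and -0.34) in these last comparisons. Among 28 genes of mTORC1, S6 kinases and their regulators, 2 rose and 8 fell (28.6%, against 11.9% of all genes) in R6/2 against wild type, and 0 rose and 3 fell (10.7%, against 7.87%) in R6/2 x DREAM+/- against DREAM+/-. Ddit4l, an inhibitor of mTORC1, fell (-1.73 and -1.52), and so did Deptor, another (-0.45 and -0.43). Mlst8, a subunit of the complex, and Larp1 rose in the first (0.22 and 0.16). The medians of these 28 genes were -0.046 and -0.002. They were -0.047 in DREAM+/- against wild type and -0.005 in R6/2 x DREAM+/- against R6/2.

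**Figure D5:**
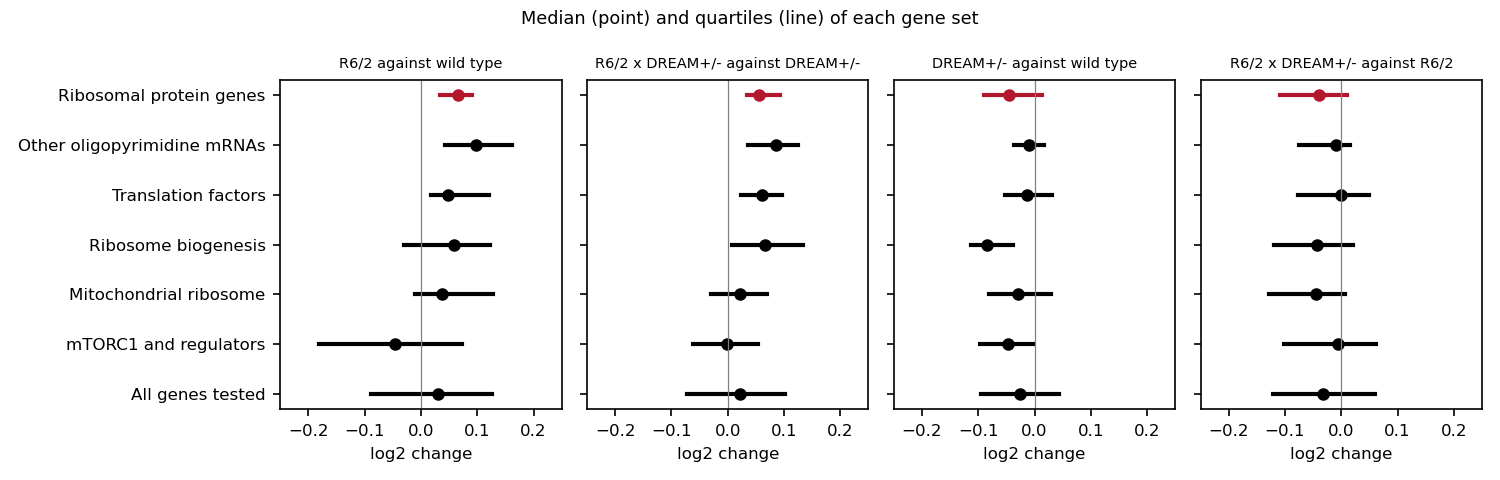
Median (points) and quartiles (lines) of log2 changes for the 47 ribosomal protein genes (red), 5 lists of protein synthesis genes and all 13011 genes tested, in 4 comparisons. The quartiles of the ribosomal protein genes lie above 0 in both R6/2 comparisons (0.033 to 0.091 and 0.035 to 0.092) and span 0 in both DREAM+/- comparisons. Other oligopyrimidine mRNAs (0.043 to 0.161 and 0.036 to 0.125) and translation factors (0.017 to 0.121 and 0.024 to 0.097) also lie above 0 in both R6/2 comparisons.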

How the data were processed

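Total RNA of whole striatum from 16 samples in 4 genotypes was hybridized to 1-colour arrays, per the labels. The authors deposited log2 probe-set values for 45101 probe sets, ranging from 3.34 to 14.71. The submitters' processing notes name RMA and affy, without versions. RMA brings arrays to a common distribution and so reduces any shift that most genes share. Array medians were 6.54 to 6.58. No genome build is given in the sources used here.

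The platform annotation named the probe sets: 34945 had 1 symbol, 932 several, 9160 none and 64 were controls. By Entrez identifier, 99.42% of the single-symbol sets matched a gene table, and 0 symbols differed. A brightness filter at the 40th percentile of probe-set means (5.944) left 13011 genes. Tests used lmFit and eBayes of limma 3.58.1 (R 4.3.3) with 1 mean per genotype over 16 arrays, and the threshold was an adjusted p (Benjamini-Hochberg) under 0.05. The procedure was tested on simulated data. Values on probe sets with several symbols are differences of means with no test. Whether replicates were separate animals is not stated beyond their being biological replicates. The p-values thus set each group difference against the spread between these samples, which need not be the spread between animals. Replicate numbers were checked for pairing. Same-numbered arrays of different groups correlated between -0.413 and 0.287, and 11 of 24 pairs exceeded 0.1. These values do not settle whether the numbers mark a pairing. The labels name no batch, and the main fit used no block. A fit with the replicate number as a block is described at the end. Replicates correlated at 0.9899 to 0.9974.

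Members, gene lists and tests were chosen with earlier results of these data known. Genes named are the members that passed, the 3 highest and lowest per comparison, those whose groups did not overlap in both R6/2 comparisons, the brightest and dimmest, paralogs, a fixed set of members with known roles, and up to 4 genes per list and comparison by p; not each is named. Alternatives changed the normalization, brightness filter, probe-set choice, variance model, array weights, samples fitted, replicate block and arrays left out.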

Additional observations from a re-analysis of the deposited data

Results flagged for a closer look

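Of 52 groups of 4 arrays examined for members described above, 2 held an array far from the other 3 by Dixon's criterion, and chance alone flags about 1 in 20. Rps27 was at 8.02 in R6/2 replicate 2, against 7.90 to 7.92 in the other R6/2 arrays. Rps27l was at 9.61 in R6/2 replicate 2, against 9.49 to 9.51 in the others. R6/2 replicate 2 was also the array with the highest median deviation of the 47 members (0.089).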

How the results depend on the processing

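No called result changed sign under any alternative run. The median interaction, near 0 and not called, did, at 0.002 with the mean of all probe sets and up to 0.006 with 1 array left out. The members' median change was 0.06 to 0.068 in R6/2 against wild type and 0.048 to 0.06 in R6/2 x DREAM+/- against DREAM+/- under quantile normalization, a shift of arrays to a common median and the mean of all probe sets of a gene. The shift moved it to -0.01 in DREAM+/- against wild type and -0.007 in R6/2 x DREAM+/- against R6/2. The count of members higher in R6/2 against wild type was 8 with the mean of all probe sets, 9 with trended and robust eBayes and 2 with only the groups compared in the fit. In R6/2 x DREAM+/- against DREAM+/- it was 1 with a filter at the 60th percentile, 7 with the mean of all probe sets, 2 with trended and robust eBayes, 2 with array weights and 2 without R6/2 replicate 1 and R6/2 x DREAM+/- replicate 3 together, a setting in which Rpl14 fell and the median interaction was -0.033. In DREAM+/- against wild type it was 2 with the mean of all probe sets, where Rps3 was added, and 0 among core proteins only. The cause was not tested.

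Leaving out 1 array at a time gave 2 to 4 members higher, 0 to 1 lower and a median of 0.058 to 0.078 in R6/2 against wild type, 0 to 2, 0 and 0.048 to 0.063 in R6/2 x DREAM+/- against DREAM+/-, 1, 2 to 3 and -0.056 to -0.038 in DREAM+/- against wild type, and 1 to 3, 3 to 8 and -0.049 to -0.03 in R6/2 x DREAM+/- against R6/2. The interaction stayed at 0 calls, with a median of -0.024 to 0.006. Rpl7a, and Rpl14, Rps2 and Rps4l in both DREAM+/- comparisons, passed under all 26 alternatives. Rps18 in DREAM+/- against wild type passed in 11 and Rpl22 in 13 of 26. With the replicate number as a block, calls over all genes were 3339, 1946, 434, 1709 and 0 against 3307, 1944, 479, 1819 and 0 without it, and 8 of 16 arrays were most like an array of their own number. The block ended the calls of Rps18 in DREAM+/- against wild type and of Rpl22.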
